A study of Mus musculus with 12 samples.

Results

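The comparison described here set regulatory T cells (Tregs) that lacked both Ebi3 and Il10 against Tregs that lacked Il10 alone, so the groups differed by the added loss of Ebi3. The members were chosen by their titles: 3 arrays of the genotype Ebi3 –/– Il10 –/– (double knockout, DKO) and 3 arrays of Il10 –/– (Il10 knockout), 6 of the 12 arrays of the series. The other 6 arrays were Ebi3 –/– and wild type Tregs, 3 of each. They gave the same loss of Ebi3 with Il10 intact and shared no array with the comparison of interest. RNA came from untreated T cells that had been purified by flow cytometry from mice and used fresh, and it was measured on Affymetrix mouse expression arrays. Replicate numbers 1 to 3 equal the batch given in the labels, so that each batch held 1 array of every genotype and the groups could be paired by number. The labels name no strain, age, sex, targeted allele or number of animals per sample, and the p-values therefore measure the spread between these samples, which may be technical in part.

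Tregs are CD4 T cells defined by the transcription factor Foxp3 that restrain other immune cells. Interleukin-10 (Il10) is an anti-inflammatory cytokine that they secrete. Ebi3 is a soluble receptor-like chain of the IL-12 family, which has no activity as a cytokine alone and pairs with the Il12a chain (p35) to form IL-35, a product of mouse Tregs, or with Il27 (p28) to form IL-27, a product mainly of myeloid cells.

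Levels are given as the MAS5 signal, which is scaled within each array to a trimmed mean of 500, so that levels of different probe sets are not compared. Differences are double knockout minus Il10 knockout on the scale of log2(signal + 20), with the standard error (SE) of a limma fit over all 12 arrays with genotype and batch as terms, n = 3 arrays per genotype. The offset of 20 makes the difference of a dim probe set smaller than that of the signal itself. The adjusted p is Benjamini-Hochberg over all 31235 probe sets tested, with 0.05 as the threshold. The array medians lay between 59.5 and 89.3.

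All 8 Treg markers were measured at high signal in both groups, among them Foxp3, Ctla4, Ikzf2, Il2ra and Cd4. Mean Foxp3 signals were 5763.8 ± 412.1 (SD, n = 3) in the Il10 knockout and 6109.2 ± 1616.6 (SD, n = 3) in the double knockout. Batch 3 stood apart from the other 2 batches on all 4 genotypes: Xist lay between 4640.8 and 6237.5 there and at most at 3.4 elsewhere, and the Y-linked gene Eif2s3y at most at 43.0 there and at least at 2984.7 elsewhere. The summed signal of 11 monocyte and macrophage markers lay between 57494.9 and 85268.1 in batch 3 and between 6216.8 and 14052.5 in batches 1 and 2. Both features were shared by the paired arrays and enter the fit through the batch term.

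Ebi3 was the only transcript that passed the threshold in the main fit over all arrays. Its signals were 1062.5, 2057.3 and 1899.6 in Il10 knockout replicates 1 to 3 and 15.2, 72.5 and 23.6 in double knockout replicates 1 to 3. Every double-knockout array was thus far below every Il10-knockout array, which matches the labels of the 6 arrays. The log2 difference was -4.96 ± 0.257 (SE; limma, adjusted p = 1.15e-06), with -4.94, -4.49 and -5.46 in pairs 1 to 3. The loss had the same size with Il10 intact: the Ebi3 knockout measured 3.0, 29.4 and 39.5 against 1159.0, 1727.8 and 1725.9 in wild type, and the difference between both losses was 0.27 ± 0.363 (SE; limma interaction, adjusted p = 1.0). Ebi3 lies on mouse chromosome 17. Its start region is printed because it is the locus in which the groups differ by design; it is RefSeq's window from 250 bases before to 50 after the gene's start in GRCm38.p6, chr17:55952373-55952672, plus strand, with nothing in capitals.
Ebi3: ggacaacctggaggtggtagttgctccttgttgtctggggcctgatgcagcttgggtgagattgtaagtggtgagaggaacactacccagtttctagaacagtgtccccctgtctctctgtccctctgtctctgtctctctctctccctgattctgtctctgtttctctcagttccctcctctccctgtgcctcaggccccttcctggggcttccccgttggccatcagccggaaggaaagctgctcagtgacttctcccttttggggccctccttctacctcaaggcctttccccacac

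**Figure D1:**
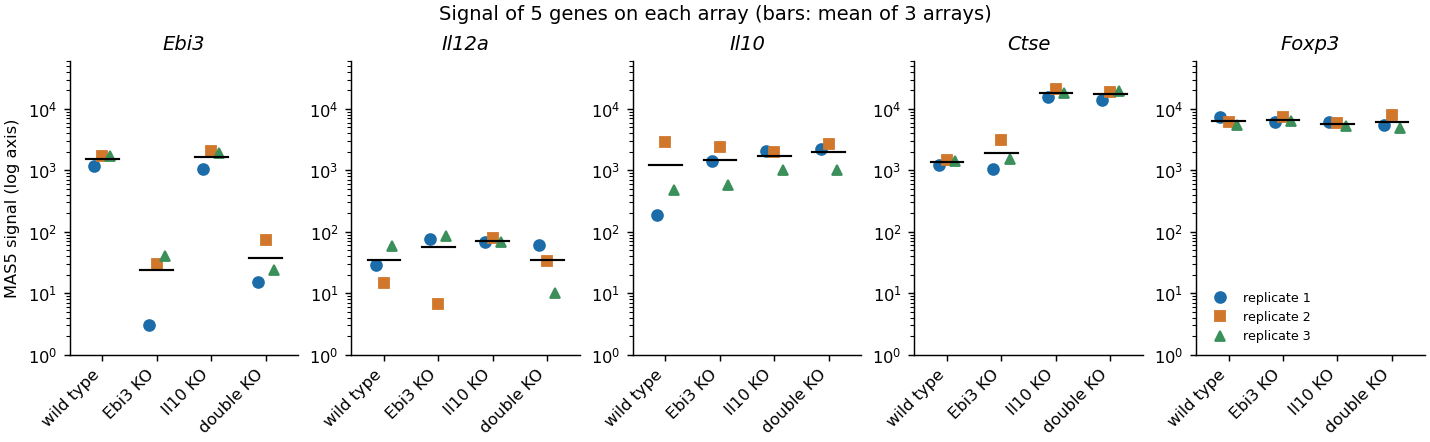
MAS5 signal (log axis) of Ebi3, Il12a, Il10, Ctse and Foxp3 on each of the 12 arrays, by genotype; symbols mark the replicate number and bars the mean of 3 arrays. Ebi3 lies between 15.2 and 72.5 in the double knockout and at 1062.5 or above in the Il10 knockout, while Ctse, high wherever Il10 was lost, and Foxp3 overlap between these groups.

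Beyond Ebi3 no probe set passed the adjusted threshold in the main fit over all arrays. The 1 called probe set is 0.0032% of those tested. This result depended on the fit: the compared arrays fitted alone, with the replicate number as a block, gave 24 calls (0.0768%), described below. At an unadjusted p under 0.05 there were 1091 probe sets (591 higher and 500 lower in the double knockout), fewer than the 1562 that this limit would pass if no probe set differed. With 1 probe set per gene, taken as the one of highest mean over all arrays, 233 of 13899 genes reached that limit upward (1.68%), 215 downward (1.55%), and 448 either way (3.22%). The groups did not overlap in 324 genes that were higher (2.33%) and 306 that were lower (2.2%) on all double-knockout arrays. The median log2 difference over all genes was -0.003, with 49.4% of genes above 0. Genes described below as reaching an unadjusted p under 0.05 did not pass the adjusted threshold in the main fit unless this is said.

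Il10 itself was no check of the labels. Its probe set gave 2038.2, 1976.0 and 1027.8 in the Il10 knockout and 2250.8, 2639.6 and 1016.7 in the double knockout, against 184.5, 2939.8 and 483.8 in wild type. These signals overlap in full, with a difference of 0.18 ± 0.528 (SE; limma, adjusted p = 1.0), and signal from a knocked-out gene can come from transcript outside the deleted part, which the labels do not describe. Transcripts known from these data to be high in the Il10 knockout were compared as well. Ctse, an endosomal aspartic protease, measured 15418.1, 20750.1 and 18351.5 in the Il10 knockout and 13939.1, 18621.9 and 19483.3 in the double knockout, against 1211.3 to 1483.9 in wild type. Ap1s3, a subunit of a clathrin adaptor, lay between 1324.1 and 1841.6 in the Il10 knockout and between 1364.9 and 1818.1 in the double knockout. Their log2 differences were -0.07 ± 0.208 and -0.02 ± 0.197 (SE), with intervals (95%) from -0.52 to 0.38 and from -0.44 to 0.41. A dim second probe set of Ctse, with mean signals of 35.5 and 123.3, gave 1.28 ± 0.436 (SE) and was higher in 3 of 3 pairs. Of 12 genes named for Il10 loss by earlier results of these data, 6 were above and 6 below 0, and 2 reached an unadjusted p under 0.05 (3.22% of all genes did). Tgm2, a transglutaminase, did so downward (1722.8, 2457.4 and 4147.7 against 457.4, 1456.4 and 4224.3), with the third pair level. The receptor chain Il17re did so upward at 0.43 ± 0.196 (SE).

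On 1 probe set per gene, the partners and receptors of Ebi3 showed no difference past either limit. Il12a was dim on all 6 arrays, at 67.1, 79.2 and 66.8 in the Il10 knockout and 61.2, 33.5 and 10.1 in the double knockout. Although these groups do not overlap, the difference of -0.84 ± 0.495 (SE; limma, adjusted p = 1.0) has an interval from -1.91 to 0.23 and lies near background. Il12b, the p40 chain of IL-12 and IL-23, was at 67.2 or lower on all 6 arrays. Clcf1, a cytokine of the IL-6 family that pairs with a soluble receptor-like chain, differed by 0.02 ± 0.229 (SE). Il27 had no probe set of a single gene here and was not analysed. None of 12 receptor and signalling genes of the family reached an unadjusted p under 0.05, where 3.22% of all genes did, and their median difference was -0.12. Il27ra, the receptor chain of IL-27, measured 2967.4, 3488.4 and 3114.6 against 2690.8, 3842.6 and 4179.8. Il6st (gp130), a signalling chain shared by the IL-27 and IL-35 receptors, measured 2607.9, 2517.8 and 2797.5 against 2965.9, 2768.7 and 3061.0, a difference of 0.15 ± 0.141 (SE). Il12rb2 lay at 51.7 or lower on all 6 arrays. Socs3, a feedback inhibitor induced by cytokine receptors, differed by -0.18 ± 0.134 (SE). Further probe sets of 2 genes did reach the unadjusted limit: 1 of Socs3 gave -0.49 ± 0.191 and 1 of Tyk2, a kinase of these receptors, 0.97 ± 0.396 (SE). None of 9 genes of the IL-10 family and its receptors reached the unadjusted limit, and Il20, at -1.06 ± 0.527 (SE), had the smallest p among them.

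The share of genes at an unadjusted p under 0.05 was highest on the chromosome of Ebi3, although 381 such genes lay on other chromosomes. Of 686 tested genes on chromosome 17, 63 (9.18%) reached an unadjusted p under 0.05, 24 higher and 39 lower in the double knockout, while the other chromosomes ranged from 1.97% (chromosome 5) to 4.72% (X). In the order of tested genes along the chromosome, Ebi3 has 521 before it and 164 after it. The share was highest, 22 of 100 genes, from the 500th to the 401st gene before Ebi3, and was 12 of 100 among the nearest 100 before it. After Ebi3, 5 of the nearest 99 genes and 0 of the last 65 reached the limit. Of the 10 nearest genes on each side, Kat2b, 6 genes before Ebi3, and Satb1, 8 before it, reached the limit.

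**Figure D2:**
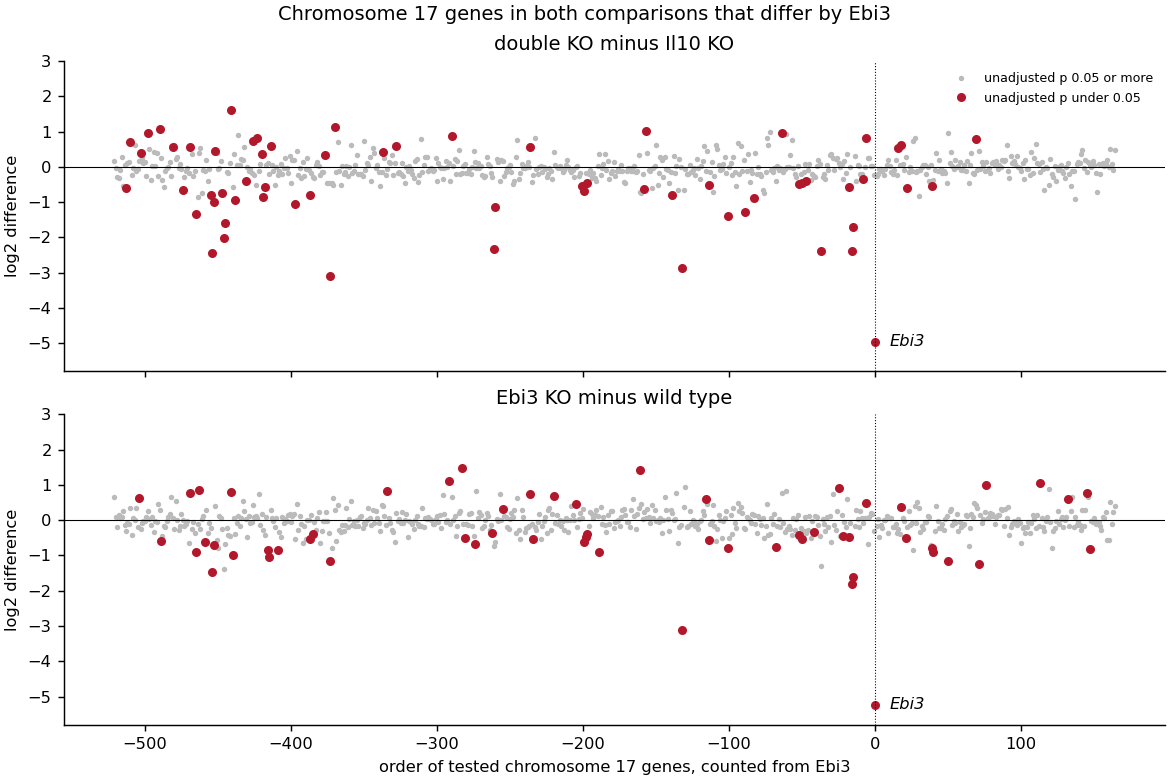
Log2 difference of each tested chromosome 17 gene (vertical axis) by its order from Ebi3 (horizontal axis), for double knockout minus Il10 knockout above and Ebi3 knockout minus wild type below; red points have an unadjusted p under 0.05. In the upper panel 63 of 686 genes are red and the 65 genes farthest after Ebi3 hold none.

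The chromosome 17 genes of smallest p that were lower in the double knockout are given first. They were named on condition of the same direction in 3 of 3 pairs, so that this agreement is no result. Baiap3, a Munc13-related protein of vesicle release, measured 678.3, 749.5 and 434.5 in the Il10 knockout and 67.9, 70.8 and 27.9 in the double knockout, a difference of -3.11 ± 0.456 (SE; limma, adjusted p = 0.169). The zinc finger genes Zfp52 (2908.4, 1898.0 and 2544.1 against 628.7, 347.1 and 363.3) and Zfp942 (234.4, 156.0 and 104.9 against 1.9, 20.2 and 25.3) were likewise lower in each pair on these probe sets. So were Eme2, a partner of the Mus81 nuclease (350.9, 264.8 and 341.6 against 45.1, 31.3 and 38.6), and Riok2, a kinase of ribosome maturation (1007.3, 948.1 and 1210.2 against 397.1, 343.2 and 481.9). Unc5cl, a death-domain protein, measured 882.8, 813.5 and 982.1 against 258.5, 227.7 and 295.7. Sik1, a salt-inducible kinase, measured 921.4, 386.1 and 761.1 against 248.8, 80.9 and 64.5. Adjusted p-values of these 6 genes lay between 0.34 and 0.419. On these probe sets the groups did not overlap. Brighter or further probe sets of some of the genes did not show this. Zfp942 gave 0.18 ± 0.181 (SE) on its brightest, higher in 3 of 3 pairs. Eme2 gave -0.18 ± 0.261 and -0.33 ± 0.447 (SE) on its others, with overlapping groups. Groups also overlapped on the further probe sets of Riok2, at 0.51 ± 0.22 and 0.29 ± 0.523 (SE), and of Sik1, at -0.645 ± 0.295 (SE). By their brightest probe set, Zfp942 and Eme2 are therefore not among the 63 genes.

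Genes on the same chromosome, named on the same condition, were also higher. Kat2b, a histone acetyltransferase, measured 5944.8, 6690.9 and 5079.4 in the Il10 knockout and 9816.0, 11683.8 and 9741.0 in the double knockout, a difference of 0.82 ± 0.174 (SE; limma, adjusted p = 0.419). Prss41, a serine protease, measured 8.4, 76.5 and 34.9 against 175.5, 344.4 and 205.3 on 1 probe set. Its other probe set, which places it among the 63 genes, gave 0.73 ± 0.34 (SE), with overlapping groups and -0.14 in pair 1. Ptprs, a receptor tyrosine phosphatase, differed by 0.63 ± 0.162 (SE) and was higher in 3 of 3 pairs, with overlapping groups. Zfp945 went both ways: 1 probe set measured 655.8, 493.6 and 387.9 against 20.3, 12.1 and 20.9, and another 207.5, 138.6 and 40 against 566.6, 522.6 and 173.6. Probe sets of a gene disagreed elsewhere too. Of the 63 genes, 32 had 53 further tested probe sets, of which 37 had the same direction (11 at an unadjusted p under 0.05) and 16 the opposite one (5 at that limit, in Riok2, Gfer, Zfp945, Pkmyt1 and BC003965). For Riok2, the further probe set measured 296.5, 177.9 and 373.2 against 493.7, 323.7 and 381.6. For Satb1, a chromatin organiser of T cells, the probe set of highest signal gave -0.35 ± 0.141 (SE) and the next -0.03 ± 0.13 (SE).

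**Figure D3:**
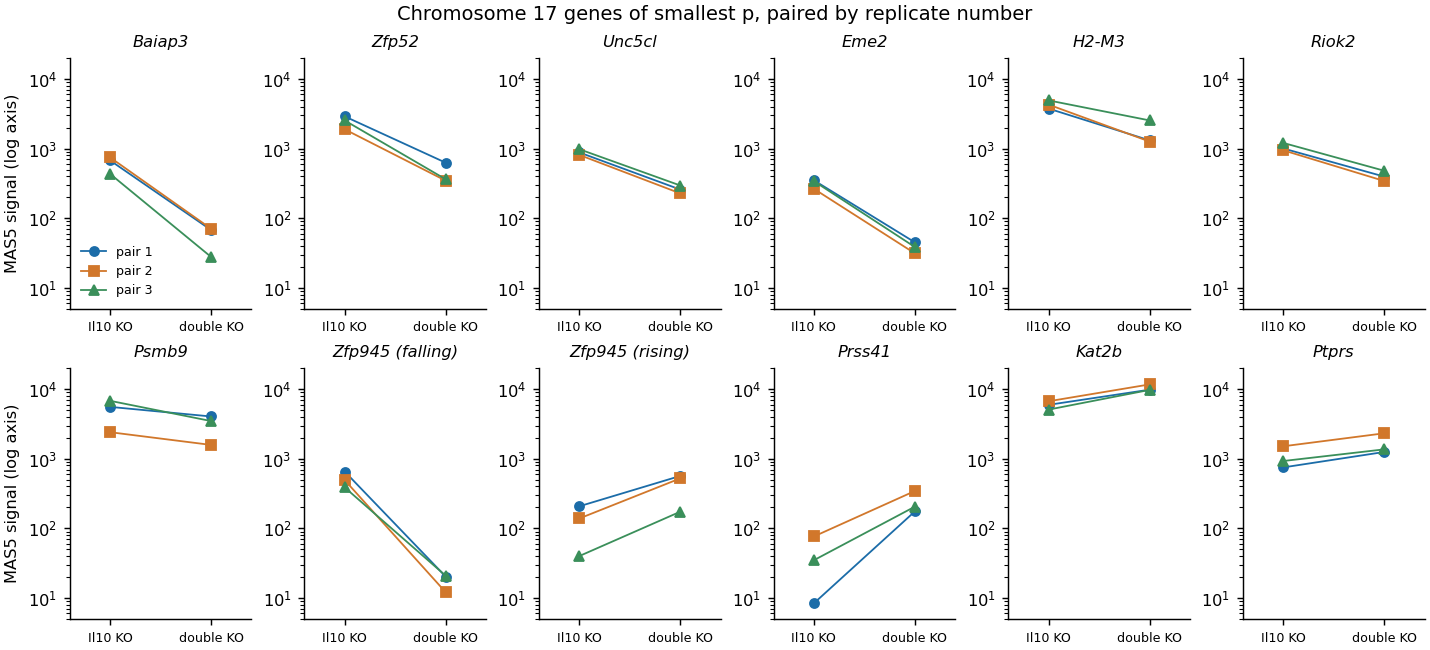
MAS5 signal (log axis) of 11 chromosome 17 genes named for their small p, in Il10 knockout and double knockout arrays; lines join arrays of 1 replicate number, and Zfp945 is shown by 2 probe sets that ran in opposite directions. Agreement of all 3 pairs was a condition for naming genes by small p, so that the lines of each panel run the same way is no result. For Baiap3 the lines fall from at least 434.5 to at most 70.8.

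The chromosome 17 genes were also compared with Il10 intact. That contrast uses other arrays than the comparison itself, but both come from 1 fit and share its estimate of the spread, its filter and its choice of probe set, so the overlap of their calls is not independent support. Leaving out Ebi3, 53 of the 62 chromosome 17 genes (85.5%) had the same direction in Ebi3 knockout minus wild type, against 56.7% of 381 genes on other chromosomes. Of the 62, 21 also reached an unadjusted p under 0.05 there (33.9% of them, and 36.8% of the 57 that did so with Il10 intact), and 0 reached it in the opposite direction. On other chromosomes the overlap was 30 genes (7.87% and 4.43% of the lists) and 20 were opposite. Over all genes, 5.31% reached the limit in Ebi3 knockout minus wild type. The 21 shared genes included Ddr1, a collagen receptor kinase, which measured 629.0, 340.1 and 756.9 in the Il10 knockout and 23.8, 64.0 and 105.5 in the double knockout. They also included Apobec2 (118.3, 178.3 and 200.1 against 43.7, 7.7 and 3.4), Dennd1c, Nfya, Klc4, Cul7, Rpp21 and Spsb3 among lower genes and Kat2b, Ptprs, Chd1, Zfp955b and Zfp945 among higher ones.

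The arrays of the Ebi3 knockout were not alike in these genes, although all 3 lacked Ebi3. Ddr1 measured 1.3, 5.7 and 689.2 in Ebi3 knockout replicates 1 to 3 and 544.1, 547.2 and 779.1 in wild type, so that replicate 3 was level with wild type. Zfp52 measured 716.2, 244.6 and 3122.7 against 2653.8, 2057.5 and 2348.5 in wild type, with the same exception. Eme2 measured 65.6, 11.9 and 334.0 against 318.3, 324.5 and 372.0. Of 19 chromosome 17 genes with a difference of at least 1 in the double knockout, 10, 11 and 1 differed by at least 1 in that direction in pairs 1, 2 and 3 of Ebi3 knockout minus wild type, and the medians in that direction were 1.10, 1.45 and 0.12. The 19 genes were chosen on the double-knockout arrays, whose own medians are therefore no result. Exceptions to the pattern of replicate 3 included Dennd1c, Zfp955b, Cul7, Rpp21 and Psmb9. Dennd1c measured 2039.5, 1066.5 and 1785.8 in the Ebi3 knockout against 3096.1, 2057.0 and 3111.6 in wild type. Of all 62 chromosome 17 genes at the unadjusted limit, 49, 47 and 39 kept the direction in pairs 1, 2 and 3, with medians in that direction of 0.51, 0.58 and 0.11. The labels name no strain, so loss of Ebi3 and any other difference of chromosome 17 that came with the knockout allele cannot be told apart in these arrays.

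A fit of the 6 arrays alone, with the replicate number as a block, called 24 probe sets (0.0768% of those tested), 6 higher and 18 lower. Of these, 17 named 16 genes, 16 of the 17 lay on chromosome 17, and 23 of the 24 had the same direction in Ebi3 knockout minus wild type. The exception by place was Sostdc1 on chromosome 12. The largest unadjusted p of these 24 in the fit over all 12 arrays was 0.0125. That smaller fit has 2 residual degrees of freedom against 6 in the main one. Its median SE was 0.228 against 0.272. For Zfp52 the difference was -2.43 in both fits, with an SE of 0.151 in the smaller fit and 0.499 in the main one. The spread of the main fit also draws on the Ebi3 knockout arrays, which were not alike in these genes. Whether this set the larger SE was not tested.

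Genes of antigen processing and the major histocompatibility complex (MHC) had lower values in the double knockout nearly without exception. None passed the adjusted threshold in the main fit, while H2-M3 did in the fit of the compared arrays alone (limma, adjusted p = 0.00513). Genes of this list load peptides onto MHC molecules for display to T cells, and in the mouse the MHC is on chromosome 17. Of 27 tested, 26 were below 0, with a median of -0.18 and pair medians of -0.25, -0.17 and -0.25. Of these, 6 reached an unadjusted p under 0.05 downward (1.55% of all genes did) and none upward, and 3 did not overlap (2.2% of all genes). On chromosome 17, 16 of 17 were below 0 (median -0.25, 5 at the limit), and on other chromosomes 10 of 10 (median -0.15, 1 at the limit). H2-M3, which presents formylated peptides, measured 3765.0, 4296.0 and 4935.6 against 1316.1, 1266.0 and 2545.8, a difference of -1.40 ± 0.269 (SE; limma, adjusted p = 0.403). The immunoproteasome subunits ran together: Psmb9 measured 5559.9, 2407.1 and 6795.3 against 4047.6, 1579.8 and 3479.1. Psmb8 measured 7686.6, 4646.9 and 8197.0 against 5791.7, 3407.7 and 5800.7, and Psmb10, on chromosome 8, measured 4216.1, 2725.6 and 4628.6 against 3138.7, 1812.8 and 3312.1. Each was lower in 3 of 3 pairs, with log2 differences of -0.67 ± 0.138, -0.45 ± 0.162 and -0.50 ± 0.188 (SE), with arrays of the groups overlapping between batches. H2-Q10, a class Ib gene, measured 286.9, 146.1 and 134.6 against 80.5, 100.4 and 103.3. H2-T24 was the only member above 0. With Il10 intact the list as a whole was level, with a median of -0.01 and 13 of 27 members above 0. Psmb9, H2-M3 and Psmb8 were lower there too, at -0.61 ± 0.138, -0.795 ± 0.269 and -0.38 ± 0.162 (SE), each at an unadjusted p under 0.05. In pair 3 of that contrast H2-M3 and Psmb8 were nearly level, at -0.065 and -0.066.

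Markers of B cells, which carry MHC class II, had lower values as well, but none of 11 reached an unadjusted p under 0.05 and none separated the groups. Their summed signal was 7282.1, 2164.6 and 12984.0 in the Il10 knockout and 5933.3, 1664.1 and 8671.9 in the double knockout, with 10 of 11 below 0 and a median of -0.33. Ms4a1 (CD20) measured 1804.5, 304.0 and 3345.2 against 1189.5, 206.3 and 1634.1. The part of these cells in the MHC values was not tested. In bulk RNA, fewer cells of a type and less RNA per cell cannot be told apart.

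Interferon-response genes were below 0 in 25 of 31 cases, with a median of -0.17, but the pair medians were 0.04, -0.41 and 0.02, so that pair 2 set the median. Of these, 3 reached an unadjusted p under 0.05 downward (1.55% of all genes did) and none upward. Iigp1, an interferon-inducible GTPase, measured 2560.2, 2211.8 and 1890.8 against 1065.5, 1013.5 and 1823.7, with pair 3 nearly level. Gbp3, a guanylate-binding protein, measured 4050.0, 3562.8 and 3108.6 against 2876.8, 2222.9 and 2865.3. Bst2 (tetherin), which also marks plasmacytoid dendritic cells, measured 532.8, 329.1 and 645.5 against 426.4, 233.1 and 310.4.

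Genes of mitosis had higher values in the double knockout, though none passed the adjusted threshold. Of 32 tested, 29 were above 0, with a median of 0.34 and pair medians of 0.80, 0.09 and 0.20. Of these, 8 reached an unadjusted p under 0.05 upward (1.68% of all genes did) and none downward, and 6 did not overlap (2.33%). Mki67, the source of the proliferation marker Ki-67, measured 1014.8, 1249.7 and 1454.2 against 2695.7, 2140.7 and 2436.9, a difference of 0.97 ± 0.199 (SE; limma, adjusted p = 0.419). Cyclin A2 (Ccna2) measured 246.2, 321.3 and 265.6 against 668.9, 421.5 and 465.8. Prc1, which bundles microtubules of the midzone, measured 266.6, 261.8 and 258.6 against 476.6, 351.3 and 469.0. The other probe sets of these 2 genes gave 0.53 ± 0.287 for Ccna2 and 0.55 ± 0.272 (SE) for Prc1. Groups overlapped there, and pair 3 was at -0.14 for Ccna2 and at -0.085 for Prc1. Nek2, a kinase of the centrosome, measured 111.6, 37.1 and 194.7 against 397.3, 204.6 and 204.5, but its other probe sets, both dimmer, gave 0.21 ± 0.311 and -0.46 ± 0.353 (SE). Ccnb2, cyclin B2, measured 301.4, 356.8 and 633.2 against 570.0, 509.2 and 913.0. The highest differences stood in pair 1: without double-knockout replicate 1 the median was 0.14 with 23 of 32 above 0, and without all arrays of replicate 1 it was 0.15 with 24 above 0. The list was lowest in the Il10 knockout: its median was -0.47 in Il10 knockout minus wild type and -0.15 in double knockout minus wild type, 2 values that share the wild type arrays. With Il10 intact the loss of Ebi3 ran the other way, with a median of -0.22, 4 of 32 above 0 and pair medians of -0.64, -0.04 and -0.10. For Ccna2 the difference between the backgrounds was 1.42 ± 0.329 and for Mki67 1.18 ± 0.281 (SE; limma interaction, adjusted p = 1.0 for each).

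Genes of DNA replication, which precedes mitosis in the cycle, were above 0 in 26 of 32 cases, with a median of 0.17 and pair medians of 0.37, 0.01 and 0.04. Rrm2, a subunit of ribonucleotide reductase, measured 682.1, 1425.6 and 1077.6 against 1652.1, 1879.8 and 1557.8. Uhrf1, which couples replication to maintenance of DNA methylation and lies 16 genes after Ebi3, measured 226.3, 197.0 and 329.1 against 500.4, 295.2 and 333.8. These 2 of 32 were the only members at an unadjusted p under 0.05 on 1 probe set per gene, both upward (1.68% of all genes). Myb, a transcription factor of proliferating haematopoietic cells, was among the genes of smallest p on 1 of 3 probe sets. That probe set measured 167.7, 208.6 and 296.1 against 529.6, 410.3 and 334.3. A brighter one gave 0.56 ± 0.247 and a dimmer one 0.38 ± 0.318 (SE), with pair 3 at -0.31 and -0.47.

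**Figure D4:**
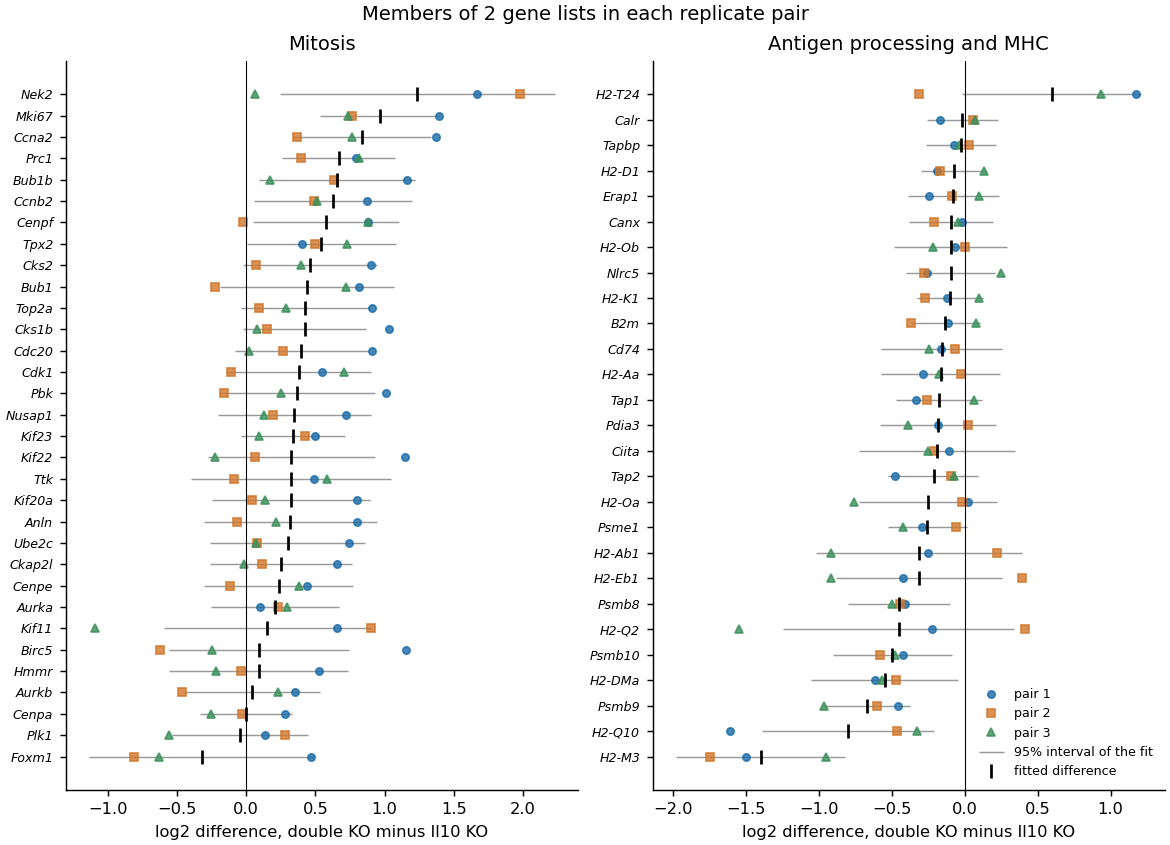
Log2 difference of each tested member of the mitosis list and of the antigen processing and MHC list; colored symbols are pairs 1 to 3, black ticks the fitted difference and grey lines its 95% interval. Of the mitosis genes 29 of 32 ticks lie above 0, with pair 1 mostly farthest right, and of the MHC genes 26 of 27 lie below 0.

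Mitotic genes are known to share 2 elements near their start: the cell cycle gene homology region (CHR), read here as TTTGAA, and the CCAAT box, each on either strand. Of 26 tested mitosis genes with a complete 300-base window in RefSeq's GRCm38.p6 table, 20 (76.9%) held TTTGAA, against 20.2% of 27018 genes (17.9% of 32841 windows), and 23 (88.5%) held CCAAT, against 41.1% of genes (37.4% of windows). These matches describe the members and are no result of the comparison. The windows of 2 members that were higher in 3 of 3 pairs are printed from 250 bases before to 50 after the start, on the minus strand at chr7:135716330-135716629 for Mki67 and chr9:70421505-70421804 for Ccnb2. Capitals mark both elements, which do not overlap each other there, with 2 of the first and 3 of the second in each window.
Mki67: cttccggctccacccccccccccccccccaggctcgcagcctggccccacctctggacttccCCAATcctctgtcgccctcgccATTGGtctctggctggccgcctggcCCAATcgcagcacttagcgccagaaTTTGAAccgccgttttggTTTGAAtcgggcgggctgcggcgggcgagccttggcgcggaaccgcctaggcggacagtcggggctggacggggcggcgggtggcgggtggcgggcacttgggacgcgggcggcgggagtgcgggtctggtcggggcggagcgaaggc
Ccnb2: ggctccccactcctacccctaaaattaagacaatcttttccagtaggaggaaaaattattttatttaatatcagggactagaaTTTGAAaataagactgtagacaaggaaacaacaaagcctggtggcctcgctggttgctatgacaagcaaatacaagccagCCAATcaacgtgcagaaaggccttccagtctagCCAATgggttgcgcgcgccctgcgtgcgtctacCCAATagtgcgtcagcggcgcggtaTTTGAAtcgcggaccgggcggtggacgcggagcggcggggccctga

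Treg identity genes did not differ as a list, with 9 of 21 above 0 and a median of -0.01. Of these, Satb1 and Entpd1 (CD39, an ectonucleotidase that degrades ATP) reached an unadjusted p under 0.05, both downward (1.55% of all genes did). Entpd1 measured 649.2, 552.5 and 775.5 against 432.3, 400.1 and 625.7. The suppressive effectors were split, with 10 of 20 above 0 and a median of -0.02. Lag3, an inhibitory receptor for MHC class II, measured 322.6, 466.6 and 422.1 against 172.2, 261.8 and 287.5, with no overlap and a difference of -0.72 ± 0.235 (SE; limma, adjusted p = 1.0). The galectins ran the other way: Lgals1 measured 11776.7, 10536.8 and 16444.2 against 18017.9, 13084.4 and 19785.2, and Lgals3 707.3, 549.8 and 4557.1 against 1103.5, 1538.2 and 5586.1. Gzmk, a granzyme that also marks CD8 T cells, differed by -0.97 ± 0.395 (SE) at signals of at most 195.2.

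Homing receptors and effector genes gave single differences in both directions. Among 19 tested genes of effector Tregs and homing, 12 were above 0, with a median of 0.20 and pair medians of 0.24, 0.36 and -0.09. At an unadjusted p under 0.05, 2 of them were higher (1.68% of all genes were) and 1 lower (1.55%). Ccr6, the receptor for Ccl20, which lies on chromosome 17 at 503 genes before Ebi3, measured 1970.3, 2352.4 and 2075.0 against 2637.8, 3144.6 and 2585.8, and no arrays overlapped. It was lower by -0.25 ± 0.127 (SE) in Ebi3 knockout minus wild type. Cxcr3, a chemokine receptor of type 1 responses, measured 4007.0, 6004.0 and 5486.2 against 1475.8, 3497.3 and 5836.9, so that pair 3 was level. Rora, a nuclear receptor of the Th17 programme, differed by 0.41 ± 0.162 (SE). Of 15 effector cytokines and regulators, 9 were above 0, with a median of 0.03 and pair medians of -0.29, 0.37 and 0.06. Il17a measured 150.1, 97.4 and 125.9 against 411.3, 1043.2 and 131.9, high in 2 of 3 double-knockout arrays. Il18r1, a receptor chain for IL-18, measured 2426.1, 855.8 and 2075.6 against 2622.0, 2539.3 and 3277.3, with most of the difference in pair 2. Ccl4, a chemokine, measured 297.8, 215.9 and 479.1 against 204.4, 120.3 and 393.0.

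Other genes of smallest p lay on several chromosomes. Camk2b, a calcium/calmodulin-dependent kinase, measured 78.7, 79.3 and 56.1 against 254.9, 212.9 and 188.2, a difference of 1.39 ± 0.284 (SE; limma, adjusted p = 0.419). Col27a1, a collagen chain, measured 118.4, 157.5 and 94.5 against 309.7, 291.2 and 211.2, while its other probe set gave 0.02 ± 0.227 (SE). Ahnak, a large scaffold protein, measured 4164.3, 4729.2 and 4922.0 against 5376.0, 7329.3 and 6841.6. Eif2d, a translation initiation factor, gave 0.94 ± 0.228 (SE) on 1 of 4 probe sets, and another gave 0.02 ± 0.142 (SE). Zbtb20, a transcriptional repressor, gave 1.28 ± 0.324 (SE) on 1 of 9 probe sets. Igha, the constant region of IgA and a gene of plasma cells, measured 119.8, 944.9 and 1969.1 against 356.3, 1389.5 and 4824.7. Of 6 tested plasma cell markers, 4 were above 0 with a median of 0.02, and their part in the Igha value was not tested. Ryk, a receptor for Wnt ligands, measured 164.2, 188.0 and 106.7 against 12.3, 27.8 and 23.1, but 13, 131.5 and 26.2 in wild type and 70.7, 305.2 and 132.8 in the Ebi3 knockout. Its other 2 probe sets gave -0.996 ± 0.394 and -0.07 ± 0.384 (SE). The difference between the backgrounds was -3.49 ± 0.545 (SE; limma interaction, adjusted p = 0.319).

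Markers of neutrophils, cells that a Treg sort should leave out, had higher values in the double knockout. Of 11 tested, 11 were above 0, with a median of 0.55, and the pair medians were -0.03, 0.82 and 0.38. Their summed signals were 3657.2, 2062.7 and 13299.9 in the Il10 knockout and 2855.1, 4482.9 and 17003.9 in the double knockout, so that pair 1 was opposite. Without double-knockout replicate 2 the median was 0.21 with 9 above 0. Camp, the cathelicidin of neutrophil granules, measured 29.2, 38.3 and 562.9 against 97.6, 194.3 and 712.8. Ngp, a neutrophil granule protein, measured 321.5, 180.6 and 1838.4 against 451.6, 634.6 and 2393.9. With Il10 intact the list ran the other way, with a median of -1.23, 1 of 11 above 0 and pair medians of -1.42, -0.91 and -1.31. Over all probe sets, no difference between the backgrounds passed the threshold in limma's interaction test. At an unadjusted p under 0.05 there were 1232, fewer than the 1562 that this limit would pass if no probe set differed. Ngp had the smallest adjusted p (0.184), at 2.87 ± 0.398 (SE), followed in this list by Camp at 2.38 ± 0.442 (SE; adjusted p = 0.706). The 11 tested monocyte and macrophage markers had a median of 0.195 in double knockout minus Il10 knockout, with 7 above 0. Their pair medians were -0.35, 1.07 and -0.11, so that pair 2 was highest there too. Whether neutrophil RNA bears on other values was not tested.

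Markers of 14 CD8 T and NK cell genes had a median of -0.22 with 6 above 0, and 9 dendritic cell markers a median of -0.20 with 3 above 0. Lists tied to activation and metabolism were level: 28 immediate-early genes had a median of -0.06 and none at an unadjusted p under 0.05. The same list had a median of 0.67 in Ebi3 knockout minus wild type, with 27 of 28 above 0, but the pair medians were 1.74, 0.36 and 0.024, and wild type replicate 1 had the lowest summed signal of all arrays. Of 17 heat shock genes, 14 were below 0 with a median of -0.12 and pair medians of -0.13, -0.32 and 0.02. The mitochondrial chaperonin genes Hspe1 (4797.5, 6983.1 and 4817.3 against 4520.5, 4037.6 and 3500.5) and Hspd1 (7686.0, 7282.9 and 5270.8 against 6284.2, 4266.8 and 5063.1) were the 2 that reached the unadjusted limit downward (1.55% of all genes did), and the other probe set of Hspe1 gave -0.18 ± 0.192 (SE). None of 33 genes of oxidative phosphorylation, 14 of glycolysis, 20 of cholesterol and fatty acid synthesis and 14 of the BCL2 family did so, with medians of -0.03, -0.03, -0.03 and -0.08.

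**Figure D5:**
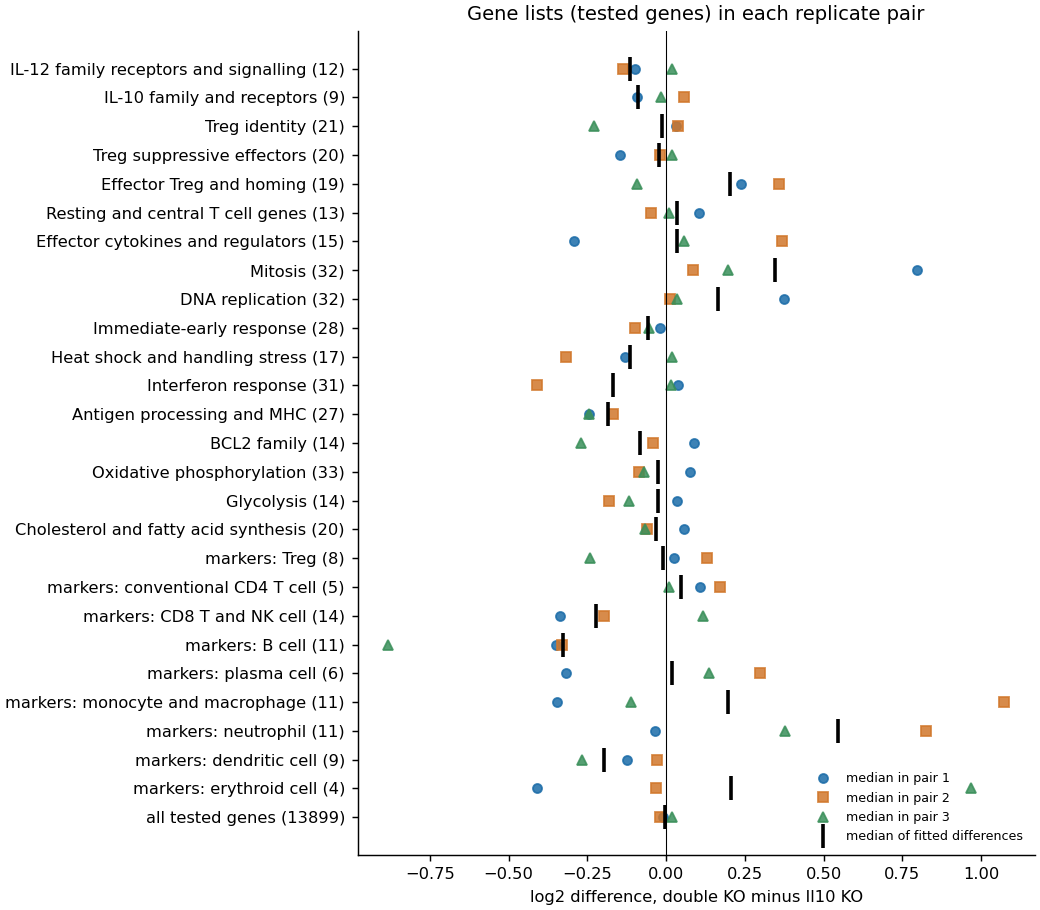
Median log2 difference, double knockout minus Il10 knockout, of gene lists (number of tested genes in brackets) in pairs 1 to 3 (symbols) and in the fit (black ticks). The lists of IL-12 family chains and of genes named for Il10 loss are not shown. Antigen processing and MHC lies below 0 in all 3 pairs (-0.25, -0.17 and -0.25) and mitosis above 0 (0.80, 0.09 and 0.20), while neutrophil markers lie at -0.03, 0.82 and 0.38.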

How the data were processed

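Tregs of 4 genotypes were measured on 12 arrays in 3 batches. The deposited values are on a natural log scale with an offset of 20 added to the signal: once both are undone, signals below 200 are multiples of 0.1 (within 0.005). MAS5 and Partek 6.4 are listed, with no role, in the submitters' processing notes, and the genome build is not given in the sources used here. From these values log2(signal + 20) was computed, with no further normalization. Of 45037 probe sets that are not controls, 31235 that reached the 40th percentile of the array on 3 or more arrays were tested with limma 3.58.1 in R 4.3.3 (lmFit, eBayes with trend) on all 12 arrays, with genotype and batch as terms. limma was also run on simulated data, and the outcome of that run is not given here. Of the 45037 probe sets that are not controls, 34945 had 1 gene symbol in the platform table, 932 several and 9160 none. Only the first kind was named.

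The replicate numbers pair the samples: the labels give the number as the batch, and deviations of same-numbered arrays correlated at 0.325 to 0.664 in all 18 pairs of arrays. Gene order and start regions came from RefSeq tables of GRCm38.p6.

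Named were Ebi3, Il10 and called probe sets. Added were up to 12 genes of smallest p per direction (same direction in 3 pairs, mean signal of at least 100 in the higher group), up to 4 members of smallest p per list with members whose role the text needs, neighbours of Ebi3 and genes tied to Il10 loss. Gfer, Pkmyt1, BC003965, Sostdc1, Ddr1, Apobec2, Dennd1c, Nfya, Klc4, Cul7, Rpp21, Spsb3, Chd1, Zfp955b, H2-T24, Psmb10 and Ccnb2 were chosen after their values were seen. The members and lists were chosen with earlier results of these data known. Alternatives changed the block, arrays, offset (1 or 100), filter, normalization, trend and probe set rule, or left out arrays.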

Additional observations from a re-analysis of the deposited data

How the results depend on the processing

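Ebi3 passed the threshold under every alternative run, with log2 differences from -5.71 (offset of 1) to -3.67 (offset of 100). The count of called probe sets stayed at 1 except in the fit of the 6 arrays alone with the replicate block, which called 24, and without all arrays of replicate 2 or of replicate 3, which called 2 each: Zfp945 or Baiap3 joined Ebi3. Leaving out arrays thus gave 1 to 2 calls. Without the replicate block the pairing was lost: Ebi3 stayed called (adjusted p = 0.00273), probe sets at an unadjusted p under 0.05 went from 1091 to 386, and chromosome 17 genes at that limit from 63 to 32. Over the other alternatives that number lay between 48 and 79. Of the 69 named probe sets followed, the reversals were in genes near 0. Ap1s3 was 0.003 under quantile normalization. Leaving out arrays moved Ap1s3 from -0.20 to 0.19, Ctse from -0.18 to 0.068, Foxp3 from -0.13 to 0.17, Il10 from -0.27 to 0.56, Clcf1 from -0.18 to 0.14 and Il27ra from -0.001 to 0.29; the cause was not tested. Groups of 3 arrays limit the precision: the median SE of a log2 difference was 0.272.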
